A study of Macaca mulatta with 19 samples.

Results

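The question was whether testosterone acts on periovulatory granulosa cells in the same way under a Western-style diet (WSD) as under chow. It was addressed by a difference of differences, (WSD+T minus WSD+C) minus (Chow+T minus Chow+C), fitted for each gene on the log2 scale. A positive contrast means that the testosterone difference was higher on WSD than on chow, and a negative contrast means that it was lower. All 19 of the 19 libraries entered the comparison, each placed in its group by the treatment label. The animals were rhesus macaques that carried an implant from near menarche for about 3.5 years, 10 enrolled per treatment, of which 7 to 10 underwent controlled ovulation cycles. Chow+C received chow and a cholesterol implant (4 libraries, the control). Chow+T received chow and a testosterone implant, which held testosterone 4 to 5 fold above the cholesterol level (4 libraries). WSD+C received the Western-style diet with the cholesterol implant (5 libraries), and WSD+T received the same diet with testosterone (6 libraries). Every group therefore carried an implant, and each library came from the follicle of 1 animal.

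Granulosa cells surround the oocyte and are the follicle's source of estradiol and, after the midcycle gonadotropin surge, of progesterone. Testosterone reaches them both as a hormone and as the substrate of aromatase. After the surge they luteinize: they take up cholesterol, raise steroid synthesis, loosen their contacts and remodel the matrix around them. A diet rich in fat can change the lipid and hormone supply to the same cells, which is why a factorial design asks whether the exposures add up or modify each other.

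The libraries held 28832132 to 56385679 reads in genes, and Pearson correlations of log2 CPM, the count scaled to a common library size, between libraries ran from 0.745 to 0.981. Of 9 tested granulosa markers, 8 reached 1 CPM in all libraries, and their summed level ran from 2520 CPM in the fourth WSD+C library to 16900 CPM. That library (WSD+C 4) also had the highest summed erythroid markers, 129000 CPM against at most 3430 in the other groups, and 2150 CPM of leukocyte markers. WSD+T 6 had the most macrophage markers, 3650 CPM, and the highest leukocyte sum of its group, 1710 CPM. Chow+C 2 had 49.1% of its reads in genes against 55.9 to 69.1% in the others. The oocyte classes in the labels were not balanced. MI oocytes came with 3 Chow+C, 0 Chow+T, 3 WSD+C and 2 WSD+T libraries. In the same order, MII oocytes came with 1, 2, 0 and 1, and degenerating oocytes with 0, 1, 2 and 3. WSD+C 4, WSD+T 3 and WSD+T 6 were among the libraries with degenerating oocytes, and Chow+C 2 was of the MI class. In bulk RNA, fewer cells of a type and less RNA per cell cannot be told apart.

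No gene passed the interaction test. Across 15019 genes, edgeR's quasi-likelihood test, adjusted by the Benjamini-Hochberg method, called 0 (0% of those tested), and the smallest adjusted p was 0.933. The unadjusted p was under 0.05 in 679 genes (4.52%), of which 393 (2.62%) had a positive and 286 (1.9%) a negative contrast. The share is close to the 5% that the threshold itself sets, so membership in the set is not evidence for any single gene. limma voom also called 0, and DESeq2 called 3: RASSF9, FCRL1 and the copy of CKB under ENSMMUG00000018977. FCRL1, an Fc receptor-like protein of B cells, had no count in any Chow+T library and at most 8.47 CPM, in WSD+C 4; edgeR gave it a contrast of 4.73 with an unadjusted p of 0.149. That fitted value is taken over a group at 0 and is no bound: it ran from 3.80 without Chow+C 4 to 9.05 without WSD+C 4, and the same difference of differences between group means in CPM was -1.02. CKB, brain creatine kinase, had a contrast of 7.47 and an adjusted p of 0.933 by edgeR under that identifier, with its highest levels, 1.04, 2.40 and 1.03 CPM, in Chow+C 2, WSD+T 3 and WSD+T 6. Both were named because DESeq2 called them. The contrast is estimated with more error than either of its components, with a median SE of 0.507 (log2) against 0.386 for testosterone on chow and 0.33 for testosterone on WSD. The testosterone difference itself had an unadjusted p under 0.05 in 1079 genes on chow (7.18%) and in 579 genes on WSD (3.86%), with 0 called in either. At the SE of the contrast, a value of 1.07 was needed to reach an unadjusted p of 0.05, so smaller differences were not detectable in a typical gene. The median contrast over all genes was 0.01, with quartiles of -0.33 and 0.37. Genes named below are therefore given by their values, as a description of these 19 animals.

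Each response was placed in a shape from its fitted values, with a size limit of 0.5 on the log2 scale. Of the 679 genes, 289 (42.6%) were lost or blunted, meaning that the testosterone difference was at least 0.5 on chow and smaller, or under 0.5, on WSD. A further 231 (34%) were opposite, with a difference of at least 0.5 in each diet and contrary signs. Only on WSD accounted for 28 genes (4.12%), only with both for 2 (0.295%) and enhanced on WSD for 2 (0.295%), while 127 (18.7%) fell under none of these. Over all 15019 genes, the shares were 21.8% lost or blunted, 4.61% opposite, 4.85% only on WSD, 5.43% only with both and 3.92% enhanced. The shape and the selection rest on the same contrast, so the higher shares of the first pair of shapes are a description and no test. The scatter of testosterone differences by diet shows the arrangement: the selected genes fill the band along the horizontal axis and the off-diagonal fields.

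**Figure D1:**
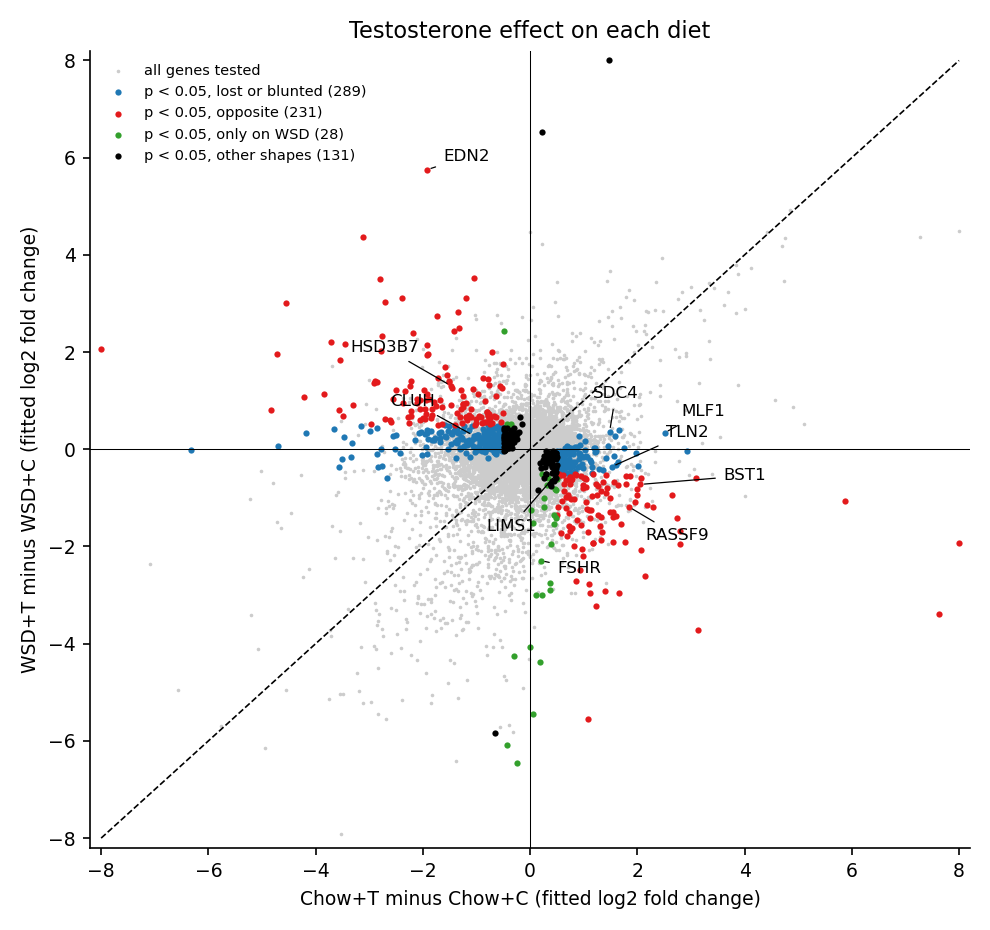
Fitted log2 fold change of testosterone on chow (horizontal axis) and on WSD (vertical axis) for 15019 genes, coloured by shape where the interaction had p under 0.05; the dashed line marks equal effects. The 289 lost or blunted genes lie along the horizontal axis and the 231 opposite genes in the off-diagonal fields, and 4 genes beyond 8 in size are drawn at the edge.

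Groups that stood apart were mostly the chow groups, among the 679 genes and, less so, among all genes. The chow groups hold 4 libraries each, against 5 and 6 on WSD, and a mean of fewer libraries varies more. Taking for each gene the group whose mean lay farthest from the other groups, Chow+C stood higher in 199 of the 679 genes (29.3%, against 16.6% of all genes), Chow+T higher in 140 (20.6%, against 15.4%) and Chow+T lower in 143 (21.1%, against 14.6%). Chow+C stood lower in 69 (10.2%, against 14.4%). WSD+T stood higher in 33 (4.86%, against 12.6%) and lower in 29 (4.27%, against 8.93%). These counts rest in part on single libraries: Chow+C 2 was the highest of all 19 libraries in 267 of the 393 positive genes (67.9%, against 17.7% of all genes). Without Chow+C 2, genes with Chow+C higher went from 199 to 47 (12.2%, against 12.7% of all genes), and those with Chow+T higher were 117 (30.5%, against 14.7%).

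Opposite responses were led by RASSF9, which encodes a Ras association domain protein of recycling endosomes. It stood at 1.12, 2.23, 3.42 and 2.67 CPM in the Chow+C libraries and at 8.98, 11.8, 5.37 and 7.70 CPM in the Chow+T libraries. On WSD the order was turned: the cholesterol group had 3.93, 10.5, 4.03, 3.68 and 4.17 CPM, and the testosterone group a lowest value of 0.978, a median of 2.47 and a highest of 3.52 CPM. Every Chow+T library was thus above every Chow+C library, and every WSD+T library below every WSD+C library. The diet comparisons did not overlap either, with WSD+C above Chow+C and WSD+T below Chow+T. RASSF9 was the only 1 of the 15019 genes tested (0.00666%) whose libraries did not overlap in either diet with contrary directions. It was picked by the same libraries, so nothing is read from this count. The fitted testosterone difference was 1.84 on chow and -1.18 on WSD, and the contrast was -3.02 (SE 0.630, 95% CI -4.35 to -1.70), with an unadjusted p of 0.000153 and an adjusted p of 0.933 by edgeR's quasi-likelihood test. DESeq2 gave -3.01 (SE 0.618) with an adjusted p of 0.00796, the reason it is listed among that tool's calls. Across 33 other settings the contrast ran from -3.26 to -2.62, and its largest unadjusted p was 0.00218, in the 12 libraries with MI or MII oocytes. The combined exposure left RASSF9 at the control level, -0.03 against Chow+C, where adding the separate differences would give 2.99.

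BST1, a cell surface enzyme that acts on NAD (also called CD157), fell in the same shape by its fitted values, with more overlap. Chow+C libraries held 3.79, 4.58, 3.11 and 3.98 CPM, and Chow+T libraries 22.5, 4.20, 24.7 and 12.9 CPM. WSD+C stood at 5.79, 3.78, 3.88, 21.3 and 6.08 CPM, and WSD+T between 1.92 and 9.41 with a median of 4.36 CPM. Of the Chow+T libraries 3 were high and the second lay within the Chow+C range, while the single high WSD+C value came from WSD+C 4, the library rich in blood cell markers. The contrast was -2.78 (SE 0.771), and -2.03 without WSD+C 4. The fitted testosterone difference was 2.06 on chow and -0.72 on WSD. Apart from WSD+C 4, the WSD+C libraries, at 3.78 to 6.08 CPM, lay within the WSD+T range, so they show no fall on WSD. NHSL1, which encodes a regulator of actin at the cell edge, stood at 1.30 to 3.01 CPM in Chow+C and at 4.16 to 12.4 CPM in Chow+T, with no overlap. On WSD it was 2.78 to 8.56 CPM with cholesterol, and 2.07 to 10.6 with a median of 2.57 CPM with testosterone. WSD+T 2 alone held the 10.6, and the other WSD+T libraries were below every WSD+C library. Its contrast was -2.66 (SE 0.750).

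Among the 12 genes with a negative contrast and the smallest p, LIMS1, TLN2 and SDC4 encode parts of cell-matrix adhesions, the contacts that join integrins to the actin skeleton. LIMS1, the adaptor PINCH that binds integrin-linked kinase, stood at 55.5, 80.4, 66.4 and 90.0 CPM in Chow+C and at 107, 114, 107 and 110 CPM in Chow+T. In WSD+C it was 92.8, 173, 110, 129 and 167 CPM, and in WSD+T 81.4 to 111 with a median of 106 CPM. Each exposure alone therefore went with values above every control library, and the values of the combined group lay near those of Chow+T. Its testosterone difference was 0.58 on chow and -0.40 on WSD, a contrast of -0.98 (SE 0.253, 95% CI -1.51 to -0.45) with an unadjusted p of 0.00117.

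TLN2, the integrin-linking protein talin 2, had 26.4, 38.1, 16.6 and 32.6 CPM in Chow+C and 85.8, 130, 46.0 and 65.3 CPM in Chow+T. WSD+C libraries ran from 38.1 to 61.6 CPM, and WSD+T libraries from 11.2 to 64.6 with a median of 34.2 CPM. The chow groups did not overlap, while the WSD groups did, and the contrast was -1.88 (SE 0.546). SDC4, the heparan sulfate proteoglycan syndecan 4, stood at 19.7, 14.8, 15.1 and 15.3 CPM in Chow+C and at 37.1, 41.6, 68.4 and 34.2 CPM in Chow+T. All 5 WSD+C libraries, at 23.6 to 30.1 CPM, lay between those groups without touching either, and WSD+T spanned 18.8 to 51.1 with a median of 32.9 CPM. Here the testosterone difference kept its sign and was smaller on WSD (0.36) than on chow (1.48), a contrast of -1.12 (SE 0.340). FHL2, a LIM-only adaptor at adhesions that also acts as a transcriptional coactivator, showed the same form, 1.66 on chow and 0.41 on WSD, with a contrast of -1.25 (SE 0.457, unadjusted p 0.0138 by edgeR). Its Chow+C libraries held 14.9 to 53.7 CPM and were below all Chow+T libraries, at 61.4 to 107 CPM, whereas WSD+C at 47.5 to 109 and WSD+T at 71.6 to 145 CPM overlapped. Among 21 tested genes of the adhesion and syndecan list, LIMS1, SDC4 and FHL2 were the 3 at an unadjusted p under 0.05, all negative. Over all genes, 4.52% were at that p, and 1.9% were at that p with a negative contrast. The list had 8 positive contrasts, against 51% of all genes, and a median of -0.14, which was -0.35 without WSD+C 4. TLN2 is not on the list. The list and the panel, which holds LIMS1, SDC4 and FHL2, were taken up with earlier results of these data known. Nothing is therefore read from the count.

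MLF1, the myeloid leukemia factor, was 1.56 to 6.38 CPM in Chow+C and 20.9, 28.1, 34.9 and 5.69 CPM in Chow+T. On WSD it was 7.27 to 11.6 CPM with cholesterol, and 6.16 to 15.9 with a median of 9.62 CPM with testosterone. Its testosterone difference of 2.51 on chow against 0.34 on WSD gave a contrast of -2.17 (SE 0.628). The fourth Chow+T library lay in the control range, and every WSD+C library was above every Chow+C library. Of the remaining genes of the 12, JMY, an actin nucleator and p53 cofactor, was at -1.03. MEX3C, an RNA-binding ubiquitin ligase, was at -0.93 and ZNF92, a zinc finger protein, at -0.92. DESI2, a peptidase of the deSUMOylating family, was at -0.69, and CIZ1, a nuclear protein that takes part in DNA replication, at -0.50. For 9 of the 12 genes every Chow+T library was above every Chow+C library, and for 1 of them, RASSF9, every WSD+T library was below every WSD+C library. WSD+C was above Chow+C without overlap for 5, and WSD+T below Chow+T for 4. Over all genes tested, testosterone and cholesterol libraries did not overlap in 2.66% of genes on chow and in 0.0732% on WSD. The diets did not overlap in 0.553% of genes with cholesterol and 1.17% with testosterone. Smaller groups fail to overlap more often, so these shares are not alike between chow and WSD. The 12 genes were picked by the same libraries, so nothing is read from the count.

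**Figure D2:**
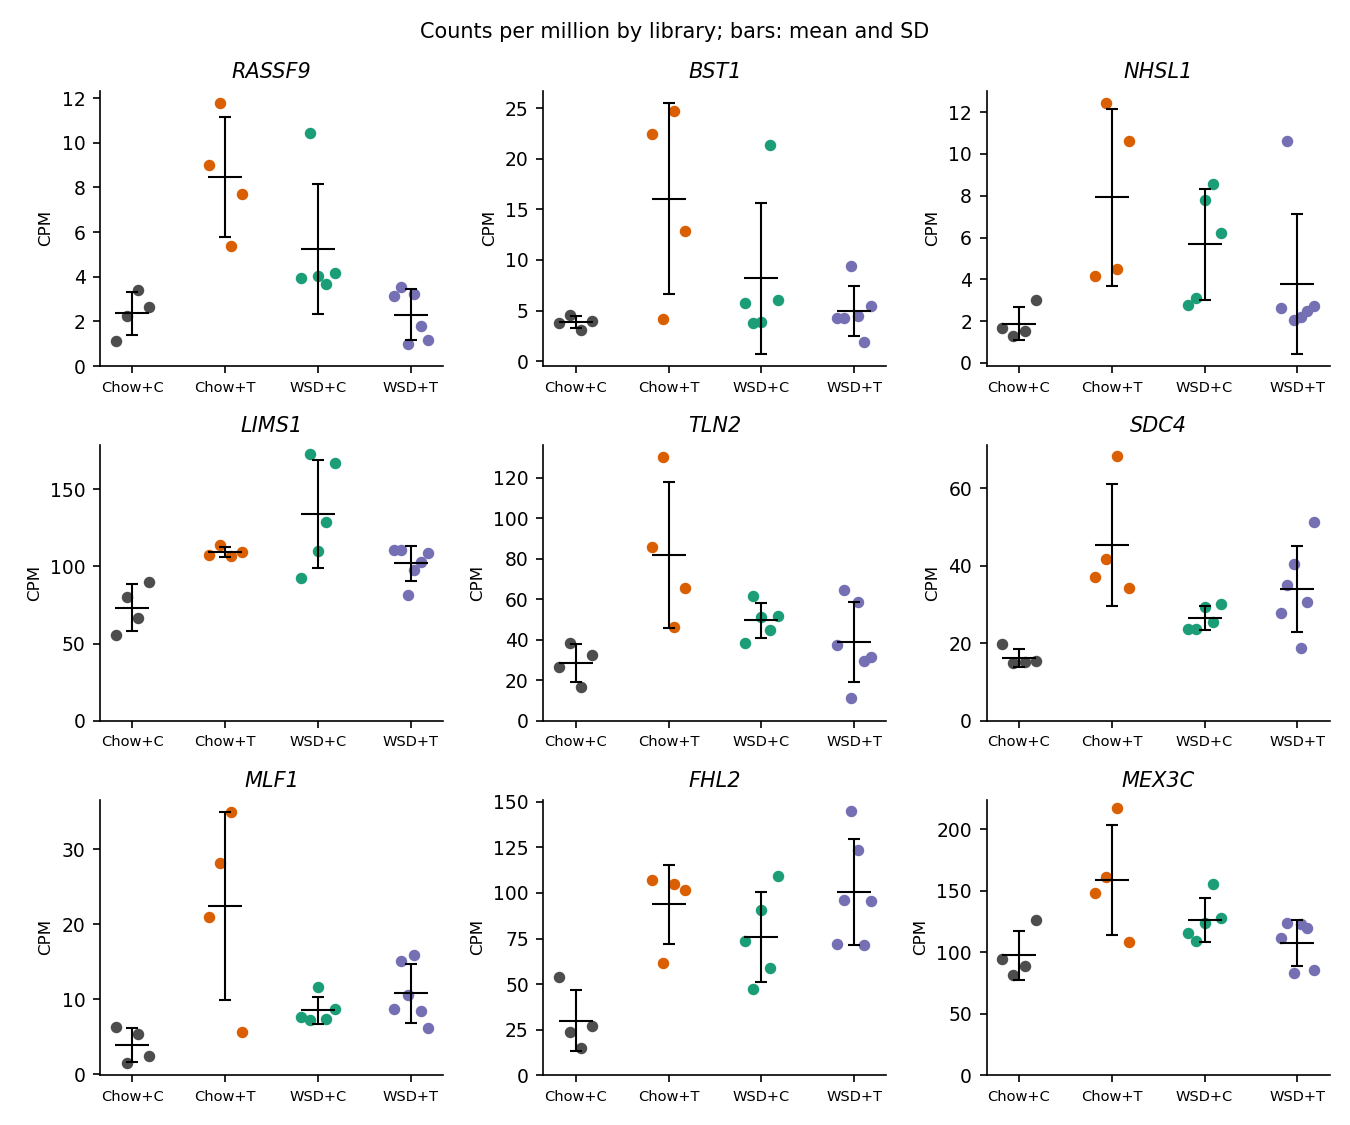
CPM in each of the 19 libraries (points) for 9 genes with a negative contrast, by group, with bars for the mean and SD. RASSF9 is higher with testosterone on chow and lower on WSD, whereas SDC4, MLF1 and FHL2 are higher with testosterone on chow and overlap between the WSD groups.

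The 12 genes with a positive contrast and the smallest p all had lower fitted values with testosterone on chow and higher ones with testosterone on WSD. CLUH, which binds messenger RNAs of mitochondrial proteins, held 129, 218, 175 and 84.6 CPM in Chow+C and 101, 51.0, 78.5 and 61.3 CPM in Chow+T. WSD+C libraries ran from 75.4 to 97.0 CPM, and WSD+T libraries from 76.2 to 154 with a median of 91.4 CPM. Chow+C held the 2 highest values of all libraries, while Chow+C 4, at 84.6 CPM, lay within the range of every other group. The testosterone difference was -1.06 on chow and 0.28 on WSD, a contrast of 1.34 (SE 0.368, 95% CI 0.56 to 2.11, unadjusted p 0.00194). Leaving out Chow+C 2 gave 1.11.

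TOP1MT, the mitochondrial topoisomerase, stood at 27.7, 76.9, 60.5 and 37.7 CPM in Chow+C, above all Chow+T libraries at 26.8, 19.1, 14.7 and 23.8 CPM. With WSD it was 17.4 to 38.1 CPM in the cholesterol group and 24.0 to 37.3, median 32.0 CPM, in the testosterone group. The WSD groups overlapped, and the contrast was 1.47 (SE 0.417). COQ8B, needed for coenzyme Q synthesis, had a contrast of 0.94 and GTPBP5, a mitochondrial GTPase of ribosome assembly, 0.85. These genes are named for their p, not as a list. The list of nuclear respiratory chain genes had a median of -0.04, with 8 of 21 positive (51% of all genes tested) and 0 at an unadjusted p under 0.05 (4.52% of all genes).

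IFI35, an interferon-induced protein, was at 25.3, 46.8, 32.7 and 33.9 CPM in Chow+C and at 23.7, 19.7, 16.7 and 21.4 CPM in Chow+T. WSD+C stood at 19.1 to 39.3 CPM and WSD+T at 25.1 to 44.5 CPM. Every WSD+T library was above every Chow+T library, and Chow+T was the group that stood low. The testosterone difference was -0.77 on chow and 0.23 on WSD, and the interval of the contrast was 0.37 to 1.63 (SE 0.298). SLC27A4, a fatty acid transport protein, averaged 17.9 ± 3.42 CPM (SD) in Chow+C, 12.3 ± 1.21 in Chow+T, 14.2 ± 1.69 in WSD+C and 17.0 ± 2.98 in WSD+T, a contrast of 0.80 (SE 0.237). KDM8, a dioxygenase of the Jumonji family, averaged 6.58 ± 1.53 CPM in Chow+C against 3.77 ± 0.753 in Chow+T, 3.96 ± 0.210 in WSD+C and a range of 3.71 to 5.08 CPM in WSD+T. Its mean was highest in Chow+C and every WSD+C library was below every Chow+C library, with a contrast of 0.99 (SE 0.300). BLOC1S2, a subunit of a lysosome positioning complex, was lowest in Chow+T at 24.3 ± 3.99 CPM and highest in WSD+T at 36.2 ± 3.15 CPM, whose libraries did not overlap, and its contrast was 0.65 (SE 0.199). PWP2, a factor of ribosomal RNA processing, had a contrast of 1.17, or 0.81 without Chow+C 2. OGFOD2, an oxygenase domain protein, had 1.09, or 0.73 without Chow+C 2, which held 48.7 CPM against 21.2 to 24.3 in the rest of its group.

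The remaining genes of the 12 leaned more on few libraries. HSD3B7, an enzyme of bile acid synthesis, was at 19.7, 105, 27.5 and 13.8 CPM in Chow+C, 13.2 to 16.8 in Chow+T, 10.7 to 19.2 in WSD+C and, with a median of 22.1 CPM, up to 81.3 in WSD+T. The high values were those of Chow+C 2 (105 CPM), WSD+T 3 (81.3 CPM) and WSD+T 6 (62.6 CPM). Its contrast of 2.79 (SE 0.794) became 1.77 without Chow+C 2 and 0.81 without all 3 of these libraries. CACNA1H, a T-type calcium channel subunit, reached 104 CPM in Chow+C 2 and its contrast of 2.77 became 1.80 without it.

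**Figure D3:**
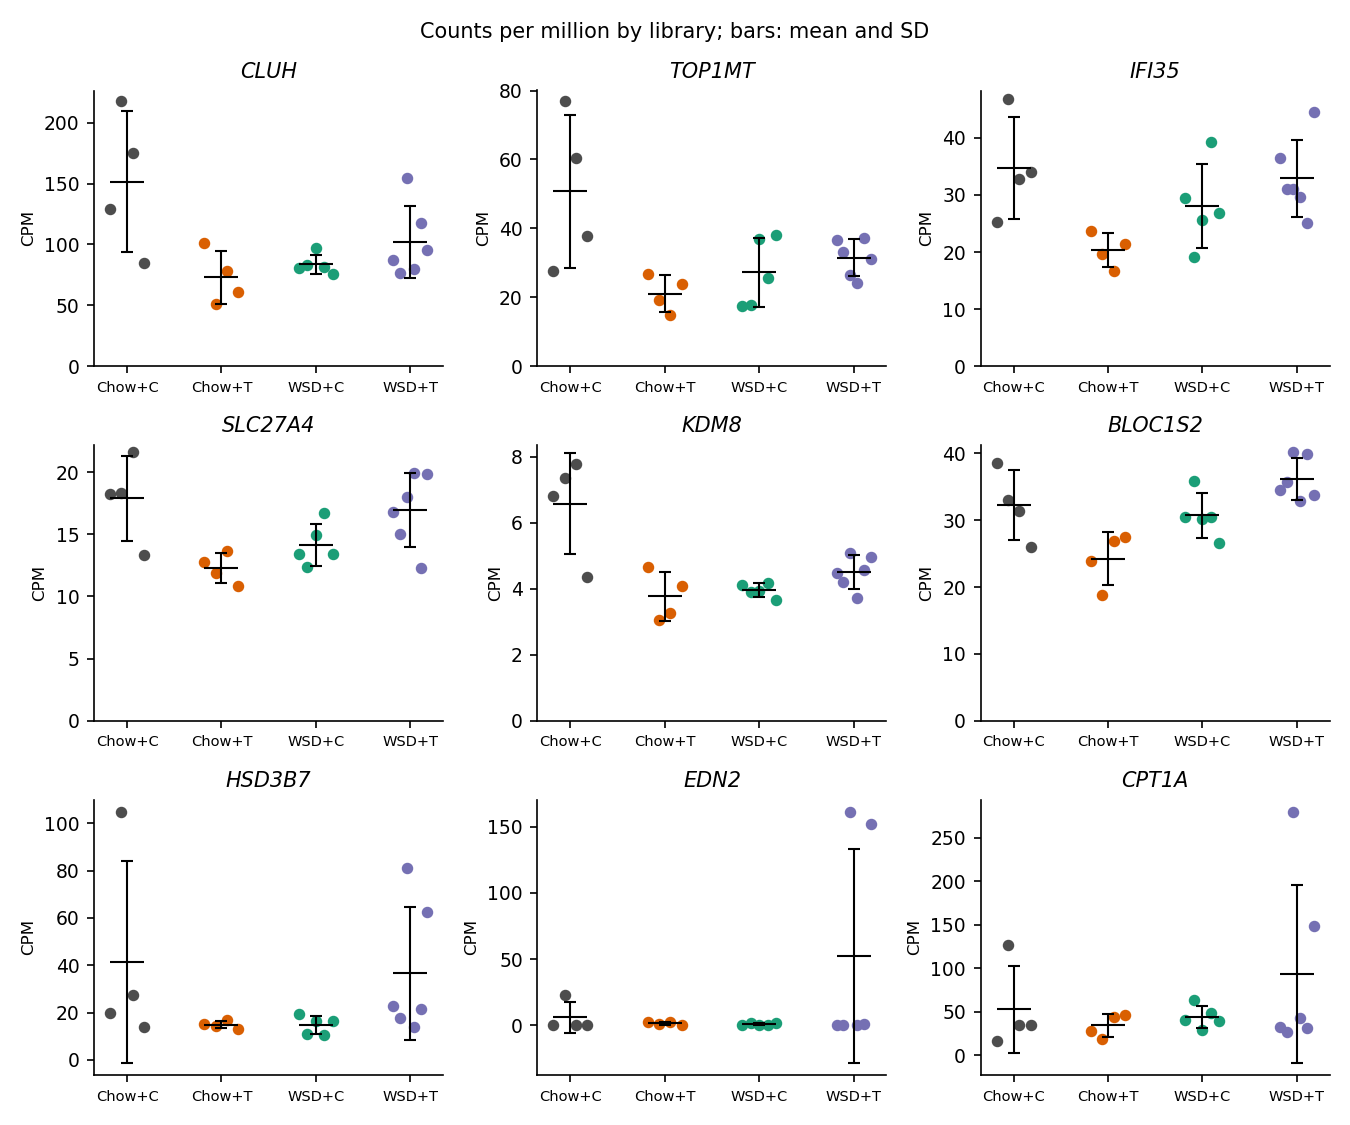
CPM in each of the 19 libraries (points) for 9 genes with a positive contrast, by group, with bars for the mean and SD. CLUH, TOP1MT and KDM8 are highest in Chow+C, whereas HSD3B7, EDN2 and CPT1A have their 3 highest values in Chow+C 2, WSD+T 3 and WSD+T 6.

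The same 3 libraries set the values of several larger contrasts. EDN2, endothelin 2, which is induced in granulosa cells around ovulation, stood at 23.2 CPM in Chow+C 2, 161 in WSD+T 3 and 152 in WSD+T 6, and at 0.232 to 2.74 CPM in the other 16 libraries. Its contrast was 7.67 (SE 2.63, unadjusted p 0.0093 by edgeR), 3.48 without Chow+C 2, and -3.23 without the 3 libraries. VEGFA, the angiogenic growth factor, held 1246 CPM in Chow+C 2, and its contrast of 2.13 became 0.97 without that library and 0.18 without the 3. CPT1A, which admits fatty acids to mitochondria for oxidation, had 126, 279 and 149 CPM in these libraries and 16.5 to 63.6 CPM in the rest. Its contrast was 1.70, and -0.68 without them. Setting these 3 libraries aside was an alternative chosen after seeing the data.

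A response seen only with both exposures was rare at an unadjusted p under 0.05. DNM3, a dynamin of membrane fission, averaged 7.72 ± 3.24 CPM in Chow+C, 8.61 ± 1.32 in Chow+T, 9.04 ± 3.09 in WSD+C and 5.07 ± 1.43 in WSD+T. All 6 WSD+T libraries were below all WSD+C and all Chow+T libraries. Their range of 2.76 to 6.42 CPM overlapped that of the control group Chow+C, 4.35 to 12.15 CPM. The contrast was -0.99 (SE 0.433, unadjusted p 0.0345 by edgeR). In 8 of the 19 fits without 1 library it was not at an unadjusted p under 0.05. The other such gene, ENSMMUG00000029022, rested on 1 library, 190.1 CPM in WSD+T 6 against at most 0.94 in every other library. Its contrast of 6.30 became 0.45 without that library. Just outside the threshold, IL18R1, a subunit of the interleukin 18 receptor, held 1.10 to 2.73 CPM in WSD+T, below every WSD+C library at 2.95 to 11.4 CPM. Chow+C at 2.68 to 9.08 and Chow+T at 1.46 to 6.16 CPM overlapped. The contrast was -1.32 (SE 0.638, unadjusted p 0.053 by edgeR). DNM3 and ENSMMUG00000029022 were named because of their shape, after their values were seen.

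FSHR was among the genes only on WSD and WEE2 among the enhanced, and both had their highest value in WSD+C 4. FSHR, the follicle stimulating hormone receptor, held 81.0 CPM in that library and 3.81 to 6.74 CPM in the other WSD+C libraries. Its contrast was -2.49 (unadjusted p 0.0307 by edgeR), and -0.54 with a p of 0.344 without WSD+C 4. The summed erythroid, leukocyte and oocyte markers were highest in the same library, the oocyte sum at 226 CPM against at most 16.3 in the other groups. WEE2, an oocyte kinase, was 1 of the 2 enhanced genes, at 5.35 CPM in WSD+C 4 and at most 0.841 CPM in the other libraries. Its contrast of -5.19 became -2.94 without Chow+T 4 and -2.23 without Chow+C 2, WSD+C 4 and WSD+T 6. With only WSD+C 4 and WSD+T 6 left out, WEE2 was not among the genes tested. The other enhanced gene, ENSMMUG00000020035, was on or off between libraries within 3 of the 4 groups: it held 20.9 CPM in Chow+C 1 and at most 0.092 CPM in the other control libraries.

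Set against an additive expectation, the selected genes fell short of the sum. For 671 of the 679 genes (98.8%) the fitted difference of WSD+T from Chow+C was smaller in size than the sum of the testosterone and the diet differences, against 73.8% of all genes. In 659 of them (97.1%) the separate differences had the same sign, against 70.6% of all genes. Both separate differences are taken from the same Chow+C libraries, and the selection uses the same contrast, so these shares are a description. All 12 positive and all 12 negative genes had this form. NHSL1 had a sum of 3.67 and a fitted difference of 1.01, MLF1 3.62 and 1.45, CLUH -1.91 and -0.58, and IFI35 -1.07 and -0.07.

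**Figure D4:**
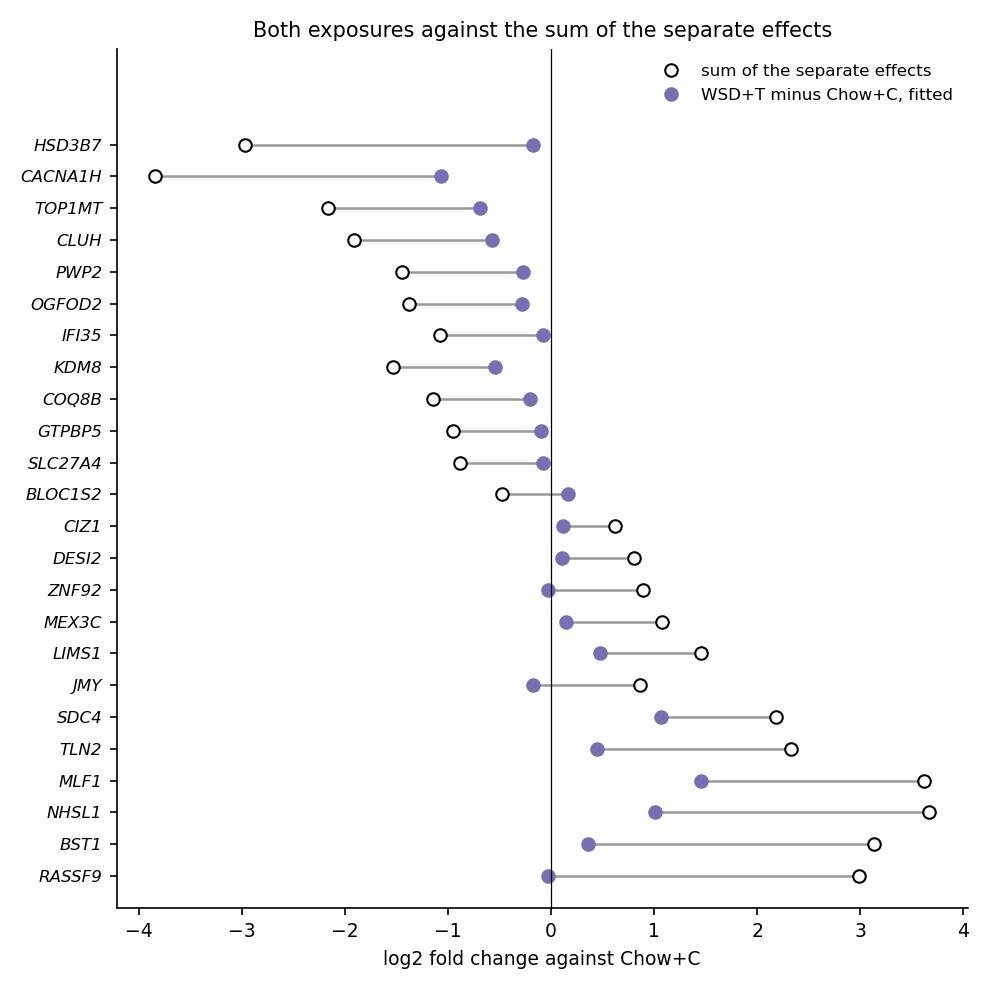
Log2 fold change against Chow+C for the 24 genes with the smallest p in each direction: open points are the sum of the separate testosterone and diet differences, filled points the fitted WSD+T difference. The filled points lie nearer 0 in all 24 genes, as for RASSF9 with a sum of 2.99 and a fitted -0.03.

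The intervals of the contrast included 0 for 6 genes of steroid synthesis, gonadotropin reception and inhibin. STAR, which brings cholesterol into mitochondria, averaged 3369 ± 2291 CPM in Chow+C, 2406 ± 1652 in Chow+T, 2718 ± 1758 in WSD+C and 3227 ± 1261 in WSD+T. The groups overlapped throughout, and the contrast was 0.73 (95% CI -1.33 to 2.79). CYP11A1, the side chain cleavage enzyme, was at 0.38 (-1.52 to 2.27), and HSD3B2, which makes progesterone from pregnenolone, at 1.87 (-1.06 to 4.80). CYP19A1, aromatase, was at -0.21 (-2.45 to 2.04), and LHCGR, the receptor for luteinizing hormone, at -0.26 (-2.49 to 1.98). INHA, the inhibin alpha subunit, was at -0.38 (-2.04 to 1.27). Each interval reaches beyond 1 on the log2 scale in at least 1 direction, so equal responses on both diets were not shown. STAR, HSD3B2, LHCGR and INHA were all far below the rest of their group in WSD+C 4.

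The pathway lists were described by their counts beside those of all genes, of which 51% had a positive contrast and 4.52% an unadjusted p under 0.05. No member of any of the 32 lists passed the adjusted threshold. Of 16 steroid synthesis genes, 11 were positive and 2 were at p under 0.05, both positive: CYP17A1 (1.85), which makes androgens, and HSD17B4 (0.74), a peroxisomal enzyme. The list median of 0.28 was 0.12 without Chow+T 2. CYP17A1 stood at 0.297 to 2.44 CPM in all groups, and its contrast was 0.96 without Chow+C 2, WSD+T 3 and WSD+T 6. Of 19 genes of fatty acid synthesis and lipid storage, 13 were positive and 3 were at p under 0.05. They were GPAM (1.49), the first enzyme of glycerolipid synthesis, DGAT1 (1.48), the last enzyme of triglyceride synthesis, and SREBF1 (1.32), a transcription factor for lipogenic genes. WSD+T 3 held 385 CPM of DGAT1 against 99.5 to 164 in the rest of its group. The GPAM contrast became 0.38 and that of DGAT1 0.57 without Chow+C 2, WSD+T 3 and WSD+T 6. The list median of 0.24 was 0.02 without Chow+C 3. Cholesterol synthesis and uptake genes were positive in 17 of 24, with a median of 0.32 that became 0.06 without WSD+C 4, and 0 were at p under 0.05. The 18 fatty acid oxidation genes had a median of 0.03.

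Of 19 androgen response genes, 11 were positive, none reached an unadjusted p of 0.05, and the median was 0.03. The ovulatory response list had 9 of 21 positive and a median of -0.10, with EDN2 alone at p under 0.05. The preovulatory granulosa list had 4 of 15 positive and a median of -0.19, or -0.05 without WSD+C 1, with FSHR alone at p under 0.05. Interferon response genes were positive in 16 of 20, with a median of 0.45 that ran from 0.00 without Chow+C 4 to 1.03 without WSD+C 4. Cell cycle genes were positive in 3 of 25, with a median of -0.93 that ran from -1.54 without Chow+C 4 to -0.29 without WSD+C 4. No member of either list was at p under 0.05. Of 16 cilium assembly genes, 11 were positive, and IFT88, a subunit of intraflagellar transport, had 0.82. The list median of 0.39 was 0.06 without Chow+C 2. BCL2L11, a cell death activator, was at -1.49 and PIK3CA, a catalytic subunit of phosphoinositide kinase, at -0.66, each the single member of its list at p under 0.05. Chow+T 2 held 10.4 CPM of BCL2L11, and without it the contrast was -0.69 (unadjusted p 0.236 by edgeR).

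Of the 11 marker lists, all but neutrophil had medians that took either sign when single libraries were left out. The neutrophil median ran from 0.36 without Chow+C 1 to 4.67 without WSD+C 4. The erythroid list had 0 of 8 positive and a median of -4.66, which was 1.86 without WSD+C 4. The smooth muscle list had 0 of 8 positive and a median of -1.32, which ran from -1.75 without Chow+C 2 to 1.71 without WSD+C 4. Leukocyte markers had a median of -0.20, and macrophage markers 0.34. Without WSD+T 6 these were -2.47 and -2.63, and without WSD+C 4 they were 3.93 and 2.94. Granulosa markers had a median of -0.21, which ran from -0.51 without Chow+C 3 to 0.17 without WSD+C 1.

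**Figure D5:**
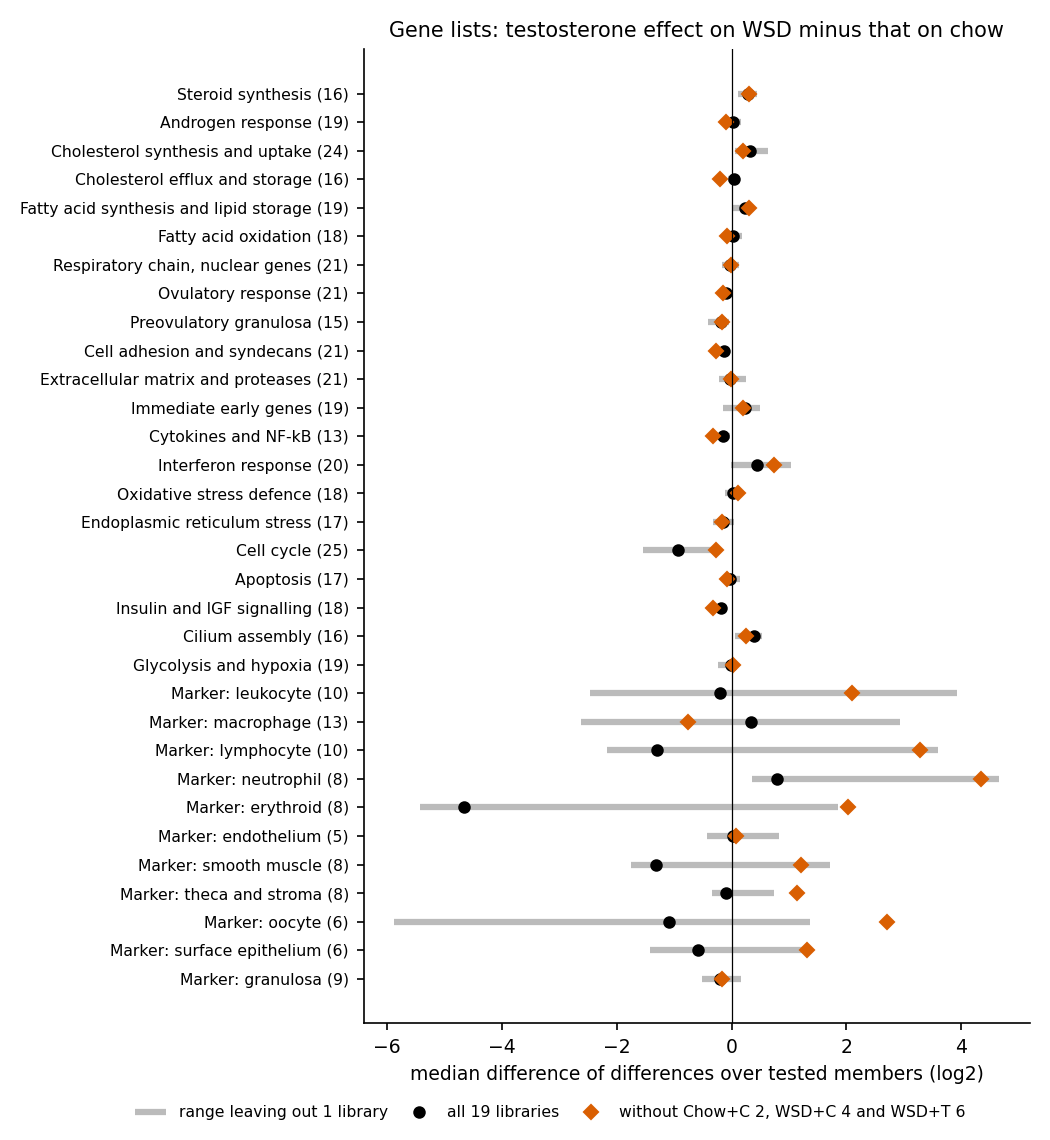
Median difference of differences (log2) over the tested members of each gene list, with the number tested in parentheses; black points use all 19 libraries, grey bars span the fits without 1 library, and diamonds leave out Chow+C 2, WSD+C 4 and WSD+T 6. Pathway medians lie between the quartiles of all genes (-0.33 and 0.37) except cell cycle at -0.93, interferon response at 0.45 and cilium assembly at 0.39, and the bar of the erythroid marker list spans -5.43 to 1.86.

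Which genes reached the unadjusted threshold depended on the animals included. Without Chow+C 2, positive genes went from 393 to 152, of which 113 were among the original 393 (28.8%), and negative genes from 286 to 236, of which 173 were among the original 286 (60.5%). Without WSD+C 4, positive genes numbered 873. WSD+C 4 was the highest library in 100 of the 286 negative genes (35%, against 18.9% of all genes), and Chow+T 3 in 79 (27.6%, against 5.93%). A set of 108 genes (0.719% of those tested) was at p under 0.05 in the fit of all libraries, in all 19 fits without 1 library and in both planned fits without 2 or 3 doubted libraries. Of these, 64 were negative and 44 positive. By shape, 53 were lost or blunted (27 negative, 26 positive), 36 opposite (25 negative, 11 positive) and 3 only on WSD, and 16 fell under no named shape. None was only with both. The left-out fits share most of their libraries with the fit that picked the genes, so staying in the set is not evidence for any single gene. The set includes RASSF9, LIMS1, BST1, MLF1, TLN2, CIZ1, SDC4 and ZNF92 among the negative genes and CLUH, TOP1MT, OGFOD2, SLC27A4, IFI35, KDM8, BLOC1S2 and PWP2 among the positive. Fits by oocyte class were not part of this rule. With MI and MII libraries only, CIZ1 and SLC27A4 alone among these named genes were not at p under 0.05. In that fit Chow+T had 2 libraries, both MII, and WSD+C had 3, all MI. Oocyte class was thus not separated from treatment there, and nothing about oocyte class is read from it. Of the 679 genes, 276 (40.6%) were at that p in the same fit.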

How the data were processed

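Luteinized granulosa cell RNA from 19 macaques was sequenced as polyA-selected libraries without strand information, per the labels' protocols. The authors deposited raw read counts per gene in 1 table of 32386 genes and 4 other classes of reads, which were left out. The submitters' processing notes name Trimmomatic and STAR; their versions, the build and the annotation behind the counts were not given in the sources used here, so no coordinates are printed. Symbols stood beside 21539 genes and 1383 came from a reference table.

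The contrast was fitted with edgeR 4.0.16 (R 4.3.3). Genes passing filterByExpr (minimum count 10, minimum total 15; 15019 genes) were scaled by TMM and fitted with 4 group means by robust quasi-likelihood. It was tested two-sided, adjusted across all genes by the Benjamini-Hochberg method, with 0.05 as the threshold, and the script was tested on simulated data. CPM values are TMM-scaled counts. Alternatives were DESeq2 1.42.0, limma 3.58.1, other scalings and filters, terms for oocyte class and leukocyte markers, and leaving out libraries. Each library is 1 animal, and replicate numbers follow sample order only.

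The comparison, gene lists (21 pathway, 11 marker) and naming rule were chosen with earlier results of these data known. Named are the 12 genes of smallest p per direction that have a symbol and average 0 or more in log2 CPM. Added are up to 8 per direction with the smallest of their largest p, among those past an unadjusted p of 0.05 in every left-out fit. A panel adds granulosa and adhesion genes together with RASSF9, MLF1, BST1 and IL18R1 (INHBA had no row under that symbol). Each pathway list adds its member of smallest p, and all lists add every member at an unadjusted p under 0.05. Some genes this rule names are not reported here. Without strand, overlapping genes cannot be told apart, and CKB, with more than 1 identifier, is uncertain.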

Additional observations from a re-analysis of the deposited data

Results flagged for a closer look

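In 248 groups of 4 to 6 libraries (62 genes in 4 groups), 27 single values lay far enough from the rest of their group to be singled out by Dixon's criterion, which chance meets in about 1 of 20 groups. WSD+C 4 accounted for 9, WSD+T 6 for 4 and Chow+C 2 for 3; no cause is assigned to any, and levels below are CPM.

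WSD+C 4 was low for STAR (225, the rest of its group 2070 to 4410), HSD3B2 (4.22, rest 333 to 901), LHCGR (0.425, rest 13.5 to 46.4), INHA (231, rest 4760 to 7200), HERPUD1 (96.2, rest 219 to 297) and DGAT1 (30.8, rest 107 to 129). The same library was high for FSHR (81, rest 3.81 to 6.74), BST1 (21.3, rest 3.78 to 6.08) and ENSMMUG00000020035 (0.0708, rest listed at 0). WSD+T 6 was high for MYLIP, an E3 ligase that degrades the LDL receptor (38.4, rest 1.8 to 5.1), IRF9, an interferon signalling factor (55.6, rest 29.6 to 36.1), and ENSMMUG00000029022 (190, rest 0.281 to 0.939), and low for LHCGR (1.96, rest 11.7 to 25.2). WSD+T 3 was high for DGAT1 (385, rest 99.5 to 164) and CYP17A1 (2.44, rest 0.538 to 0.926), and WSD+T 2 for NHSL1 (10.6, rest 2.07 to 2.72).

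WSD+C 2 was high for RASSF9 (10.5, rest 3.68 to 4.17) and low for IRF9 (20.3, rest 30.4 to 33.5). Chow+C 2 was high for OGFOD2 (48.7, rest 21.2 to 24.3) and EDN2 (23.2, rest 0.232 to 0.391) and low for DESI2 (36.1, rest 51.6 to 52.7), and Chow+C 1 was high for SDC4 (19.7, rest 14.8 to 15.3). Among Chow+T libraries, the third was high for DESI2 (87.2, rest 59.4 to 61.6) and ZNF92 (39.9, rest 25.6 to 26.6), the fourth was low for COQ8B (28, rest 38.6 to 38.9), the first was low for FSHR (2.02, rest 7.38 to 8.38) and the second was low for FHL2 (61.4, rest 102 to 107).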

How the results depend on the processing

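No gene was called in any setting but DESeq2, which called 3. Positive genes at an unadjusted p under 0.05 (393) numbered 596 without a count filter, 186 by limma voom, 259 with oocyte class as a term, 591 without WSD+C 4 and WSD+T 6, 177 without Chow+C 2, WSD+T 3 and WSD+T 6, and 152 to 873 leaving out 1 library. Negative genes (286) numbered 498 without a filter, 544 with MI and MII libraries only and 203 to 551 leaving out 1 library. Opposite genes (231) numbered 595, 107 by voom, 124 with the oocyte term, 90 at a size limit of 1 and 148 to 512. Lost or blunted genes (289) numbered 177 by voom, 627 with MI and MII only, 139 without Chow+C 2, WSD+T 3 and WSD+T 6, 183 at the limit of 1 and 133 to 689. Genes only with both (2) numbered 10 with the leukocyte term, 9 without Chow+C 2, WSD+T 3 and WSD+T 6, 4 by DESeq2 and 1 to 9 leaving out 1 library; 5 other settings gave 1.

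No named gene passed the adjusted threshold in the main fit, so staying on that side is not evidence that a value is stable. By the unadjusted p, RASSF9 was under 0.05 in all 33 other settings, while DNM3 was not in 14 and HSD17B4 not in 20. Of the values of named genes, 2010 kept their direction and side of the adjusted threshold, 3 passed it (by DESeq2) and 23 turned sign. With voom quality weights, CYP11A1 was -0.12, CPT1A -0.035 and EDN2 -1.17; with plain voom, LHCGR 0.31 and INHA 0.23; with the leukocyte term, CYP19A1 0.47, LHCGR 0.95 and INHA 0.42. Without WSD+C 4 and WSD+T 6, CYP11A1 was -0.078; without Chow+C 2 as well, CYP11A1 was -0.20 and CYP19A1 0.051. Without Chow+C 2, WSD+T 3 and WSD+T 6, CYP11A1 was -0.18, CYP19A1 0.56, LHCGR 0.094, CPT1A -0.68, NDUFS3 0.052, EDN2 -3.23 and ENSMMUG00000029022 -0.16. Leaving out 1 library in turn, CYP19A1 ran from -1.10 to 0.31 (turning without Chow+C 2, WSD+C 1 or Chow+T 3), LHCGR from -0.75 to 0.17 (WSD+C 1) and MYLIP from -2.61 to 0.50 (WSD+C 4). The cause was not tested. Of the list medians, 998 moved by less than the spread between libraries and 58 by more. No paired analysis was possible because replicate numbers only name libraries. Whether read depth limits the contrast was not tested.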
